A study of Mus musculus with 3 samples.

Results

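C1q macrophages of healing mouse skin wounds were compared between day 10 and day 6 after injury. The cells came from wounds of male C57BL6/J mice, and monocytes and macrophages of 2 mice were pooled into 1 droplet library at each day. Day 3, day 6 and day 10 were sampled, with no unwounded skin and no treatment, so the days differ in time after injury and in the mice used. The macrophages were selected on measured values: a barcode was kept with at least 200 genes, under 10% of its unique molecular identifiers (UMIs, counted RNA molecules) from mitochondrially encoded genes, at least 2000 UMIs, 0 UMIs of Ly6c2, 0 UMIs of Cd209a and at least 3 UMIs summed over C1qa, C1qb and C1qc. By this rule 269 cells of day 6 and 656 cells of day 10 were taken, 925 of the 3405 barcodes of both days and of 4877 barcodes in the series. With 1 library a day, no spread between animals could be measured and no test of the days was possible. Ratios carry 95% intervals, which cover counting error only.

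C1q is the recognition molecule of the classical complement pathway, and mature tissue macrophages are its main source. In a skin wound, circulating monocytes enter, lose Ly6c2 and become macrophages that clear dead cells and feed new vessel and matrix growth. Macrophages adjust their metabolism to oxygen through the transcription factor HIF1A and its brake, the prolyl hydroxylases, and they respond to interferons by switching on antiviral genes and antigen presentation.

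The 3 C1q genes, which the selection used, stood at 2559 and 2428 CPM, UMIs of a gene scaled to the same total in each library, for C1qa on day 6 and day 10, 2704 and 2557 CPM for C1qb, and 1572 and 1326 CPM for C1qc. The median cell held 49 C1q UMIs on day 6 and 36 on day 10. Just inside the limit, at 3 C1q UMIs, lay 5 cells of day 6 and 15 of day 10, and 9 and 32 otherwise qualifying cells had 2. The selection took 22.5% of the barcodes of day 6 (95% exact interval 20.2 to 25%) and 29.7% of those of day 10 (27.8 to 31.7%). Among barcodes that passed the first 3 limits, the shares were 48.8% (44.6 to 53.1%) and 51.6% (48.8 to 54.4%). The limit on mitochondrial UMIs removed 298 barcodes of day 6 and 281 of day 10 that held at least 3 C1q UMIs.

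The selected cells gave 3268804 UMIs on day 6 and 5722707 on day 10, and the median cell had 10557 and 8015 UMIs. All 10 macrophage markers had UMIs on both days, with summed levels of 18655 and 21142 CPM. Apoe alone made up 63.3% and 71.9% of these sums, at 11816 and 15200 CPM. Cd3e, Nkg7, Ms4a1, Ly6g, Clec9a, Pdgfra and Krt5 were at 0 on both days, but other markers of the same cell types had UMIs. Natural killer or innate lymphoid markers summed to 169 and 88.4 CPM, 99.5% and 99.6% of it Il7r. Plasmacytoid dendritic cell markers summed to 460 and 370 CPM and B cell markers to 42.8 and 22.9 CPM. Only 85 cells of day 6 and 301 of day 10 had fewer than 2 UMIs of markers of lymphoid, neutrophil, mast, stromal, epithelial or erythroid cells. Conventional type 2 dendritic cell markers summed to 154 and 103 CPM, neutrophil markers to 191 and 131 CPM, and fibroblast markers to 19.6 and 42.8 CPM. Hemoglobin stood apart: 4 cells of day 6 held 12641 of that day's 12648 hemoglobin UMIs. The day 6 and day 10 libraries shared 2 barcodes, 0 of them among the selected cells.

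Of 8630 genes with at least 50 UMIs over both days, 476 were at least 1.5-fold higher at day 10 and 883 at least 1.5-fold lower. That is the background for every list below: 5.52% of measured genes were higher by that rule and 10.2% were lower. The median log2 ratio of all measured genes was -0.08. TMM scaling moved every log2 ratio up by 0.10, and the split then became 682 higher against 646 lower, so that the higher genes made up 51.4% of those past 1.5-fold in place of 35.0%. For comparison, the same ratios were taken in Cd209a dendritic cells of the same libraries (95 cells on day 6, 139 on day 10), whose median over 6015 genes was -0.05.

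**Figure D1:**
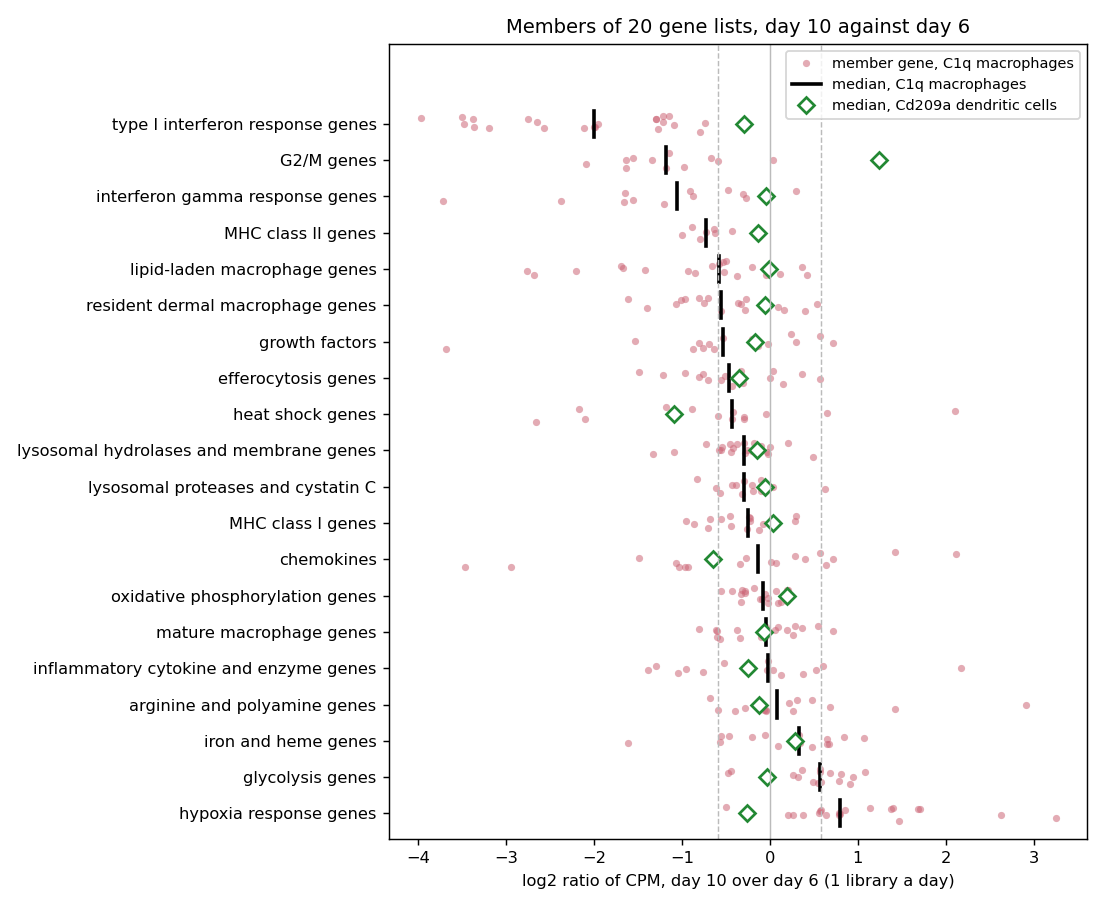
Each point is 1 measured gene of a list, placed by the log2 ratio of its CPM at day 10 over day 6 in C1q macrophages, with the list median as a black bar and the median in Cd209a dendritic cells as a green diamond; dashed lines mark 1.5-fold. All 22 type I interferon genes lie left of the lower line, and 13 of 20 hypoxia genes lie right of the upper one.

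Genes of the hypoxia response were higher at day 10. Of 20 measured genes, 13 were at least 1.5-fold higher and 0 were lower, and the list's median log2 ratio was 0.79. Hypoxia genes are switched on when prolyl hydroxylases run short of oxygen and HIF1A escapes degradation. In the dendritic cells of the same libraries the median of the 14 measured list genes was -0.26, against -0.05 over all genes measured there.

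The promoters of these genes are shown because HIF dimers bind a short core sequence. RefSeq promoters of GRCm38.p6 were matched by symbol for 17 of the 20 measured hypoxia genes, 24 promoters in all, since a gene can have several starts. The core was searched as ACGTG or GCGTG on both strands, and matches on opposite strands can overlap. It occurred in 79.2% of these 24 promoters and in 43.8% of all 32851 promoters of the same length. A match is a description of the letters and no evidence of binding. The metal response core described below, which these genes were not chosen for, was also more frequent here (58.3% of the 24 against 25.7% of all). The stretches before the start site are printed for Egln3 and Bnip3, chosen after their values were seen as abundant members that carry the core, with matches in capitals, 5′ to 3′ on the strand of the gene.
Egln3 (chr12:54203875-54204124, minus strand): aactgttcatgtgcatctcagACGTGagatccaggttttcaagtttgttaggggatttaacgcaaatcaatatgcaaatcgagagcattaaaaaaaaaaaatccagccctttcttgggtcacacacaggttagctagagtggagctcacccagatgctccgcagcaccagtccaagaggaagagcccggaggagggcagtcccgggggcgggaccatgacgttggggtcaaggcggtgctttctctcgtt
Bnip3 (chr7:138909507-138909756, minus strand): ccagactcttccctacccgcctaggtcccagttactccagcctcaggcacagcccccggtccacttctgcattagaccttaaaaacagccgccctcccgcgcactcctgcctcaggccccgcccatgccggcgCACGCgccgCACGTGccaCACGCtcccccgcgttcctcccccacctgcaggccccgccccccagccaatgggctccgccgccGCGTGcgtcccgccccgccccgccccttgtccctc

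Egln3 (chr12:54178981-54203860), a HIF prolyl hydroxylase that is itself a HIF target, had the largest ratio of any gene reaching 100 CPM on either day. Its level was 27.8 CPM (91 UMIs) on day 6 and 172 CPM (985 UMIs) on day 10, 6.18-fold higher (4.98 to 7.75). Its sister enzyme Egln1 went from 75.3 to 196 CPM, 2.6-fold (2.26 to 3.00). Hif1a, the sensor's target, measured 286 CPM on day 6 and 628 CPM on day 10, 2.19-fold higher (2.04 to 2.36). Both arms of the oxygen sensor, the hydroxylases and their substrate, were thus at higher RNA levels in the day 10 library.

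Bnip3, which directs mitochondria to autophagy, stood at 173 CPM on day 6 and 564 CPM on day 10, 3.27-fold (2.99 to 3.58). Ero1l, an oxidase that forms disulfide bonds in the endoplasmic reticulum, measured 84.7 and 272 CPM, 3.21-fold (2.82 to 3.66). Fam162a, another HIF target of mitochondria, had 77.4 and 244 CPM, 3.16-fold (2.76 to 3.62). Adm, the vasodilator peptide adrenomedullin, was scarce, with 9 UMIs on day 6 and 150 on day 10, 9.52-fold (4.88 to 21.2), with ratios from 3.52 in cells thinned before selection to 18.4 with at least 10 C1q UMIs. Vegfa, the main angiogenic factor, lay just under the limit at 451 and 671 CPM, 1.49-fold (1.40 to 1.58). TMM scaling put Vegfa at 1.6, at least 30 C1q UMIs at 1.88 and the cells with fewest markers of other types at 2.62. At the other end, Bhlhe40, a repressor of the clock family, was the 1 hypoxia gene below its day 6 level, with a ratio of 0.71 (0.64 to 0.78).

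The higher levels reached many cells. After each cell was thinned to 2000 UMIs, Egln3 was found in 5.58% of day 6 cells (3.15 to 9.03%) and 26.2% of day 10 cells (22.9 to 29.8%), against 19.3% and 54.0% before thinning. In the thinned dendritic cells, whose median depths were 17966 and 14607 UMIs before thinning, Egln3 was found in 1.05% and 0%. Bnip3 was found in 26.4% and 57.9% of the thinned macrophages, and in 5.26% and 0.719% of the thinned dendritic cells. Summed over the list, the median thinned cell held 6 hypoxia UMIs on day 6 and 12 on day 10. The middle of the distribution was higher too: 75% of day 10 cells lay above the day 6 median.

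**Figure D2:**
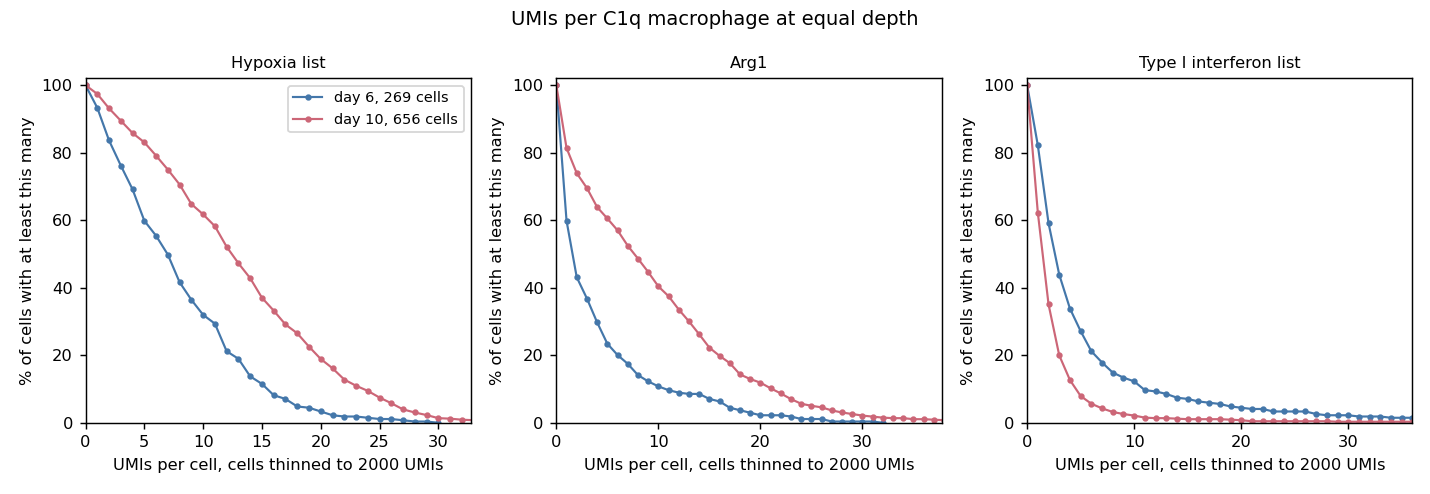
Curves give the share of C1q macrophages (vertical axis, %) with at least the number of UMIs on the horizontal axis, after each cell was thinned to 2000 UMIs, for the hypoxia list, Arg1 and the type I interferon list. The day 10 curve lies above the day 6 curve for the hypoxia list and Arg1 and below it for the interferon list.

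Some glycolysis genes were higher too. Of 16 measured genes, 6 were at least 1.5-fold higher, 0 lower and 10 within the limit, with a median log2 ratio of 0.57, against -0.04 in dendritic cells. Slc16a3, which exports lactate, went from 132 to 279 CPM, 2.11-fold (1.90 to 2.36). Slc2a1, the glucose transporter GLUT1 of the hypoxia list, measured 105 CPM on day 6 and 275 CPM on day 10, 2.63-fold (2.34 to 2.97). Hk2, the inducible hexokinase, had 107 and 205 CPM, 1.92-fold (1.70 to 2.17). Gapdh, Pkm and Pgk1 each lay at 1.49-fold, just inside the limit. Below their day 6 levels lay the hexokinase Hk3 (0.72) and the regulator Pfkfb4 (0.74). Of 20 genes of the respiratory chain, 0 passed 1.5-fold in either direction, and their median was -0.08.

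Across single cells the hypoxia and glycolysis lists went together. Spearman's rho between the thinned UMIs of the hypoxia list and the glycolysis list was 0.59 over 269 cells of day 6 and 0.60 over 656 cells of day 10. These are descriptions over cells of 1 library each. With Arg1, rho was 0.43 on day 6 and 0.67 on day 10, and with the type I interferon list -0.10 and -0.33.

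Arg1 (chr10:24915221-24927484), the enzyme that turns arginine into ornithine and urea, was among the most abundant genes that differed. It measured 1636 CPM (5348 UMIs) on day 6 and 4378 CPM (25053 UMIs) on day 10, 2.68-fold higher (2.6 to 2.76), after 972 CPM on day 3. Thinned cells with Arg1 made up 59.9% of day 6 (53.7 to 65.8%) and 81.4% of day 10 (78.2 to 84.3%), with 2.11% and 2.16% in the dendritic cells. Nos2, which competes for the same substrate to make nitric oxide, was rare but higher as well: 20 UMIs on day 6 and 264 on day 10, 7.54-fold (4.78 to 12.5). It reached 5.49% of thinned day 10 cells, and its ratio ran from 3.92 in cells with fewest markers of other types to 15.6 at a mitochondrial limit of 5%. Arg2, the mitochondrial arginase, was 1.61-fold higher (1.30 to 1.99). The 3 enzymes were thus higher together, whereas Gch1, which makes the cofactor of nitric oxide synthases, was lower (0.62) and the polyamine enzyme Odc1 lay at 0.76. In the whole list of 14 genes, 3 were higher and 2 lower.

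Metallothioneins, small proteins that bind zinc and copper, were higher at day 10. Mt1 stood at 342 CPM on day 3, 843 CPM on day 6 and 3057 CPM on day 10, 3.63-fold above day 6 (3.48 to 3.78). Mt2 stood at 11.6, 171 and 592 CPM, 3.47-fold above day 6 (3.17 to 3.8). In the dendritic cells the ratios were below 1, at 0.76 for Mt1 and 0.35 for Mt2. The zinc transporters did not share this: of 15 measured genes of the list, only Mt1 and Mt2 were higher and Slc39a1, a zinc importer, was lower (0.64). Mtf1, the zinc-sensing factor that binds metal response elements, lay at 0.77. In single cells, rho between the hypoxia list and Mt1 plus Mt2 was 0.11 on day 6 and 0.53 on day 10.

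The promoter of Mt2 is printed to show the metal response core, searched as TGCACNC or TGCGCNC on both strands and found in 25.7% of all promoters. Its promoter holds 4 matches, 3 of them in the stretch before the start site, in capitals. That of Mt1 holds 3, of which 1 lies before the start site.
Mt2 (chr8:94172368-94172617, plus strand): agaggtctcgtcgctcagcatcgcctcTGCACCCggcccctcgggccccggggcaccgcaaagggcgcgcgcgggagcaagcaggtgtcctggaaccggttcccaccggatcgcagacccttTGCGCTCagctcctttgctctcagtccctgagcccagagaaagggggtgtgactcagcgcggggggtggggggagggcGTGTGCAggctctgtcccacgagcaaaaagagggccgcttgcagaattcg

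Some of the largest ratios came from few cells. Retnla, a secreted protein induced by type 2 cytokines, went from 96.7 to 573 CPM, 5.93-fold (5.28 to 6.68), but 2.13% of thinned day 10 cells had it, as did 1.86% on day 6. Its ratio was 1.54 in cells with 3 to 9 C1q UMIs and 26.7 in those with 30 or more. In dendritic cells Retnla was lower at day 10 (0.27). Saa3, an acute-phase protein, had 100 and 452 CPM, 4.52-fold (4.03 to 5.09), and 10.4% of thinned day 10 cells had it. Ifitm1 was 3.84-fold higher (3.25 to 4.57), with 96.2% of its day 10 UMIs in the tenth of cells richest in it, and 2.14-fold without cells holding dendritic cell markers. The dendritic cells held 1904 and 2161 CPM of Ifitm1, and the part of dendritic cell RNA in the macrophage value was not tested.

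Further genes among the larger ratios came from receptors, factors and a protease. Tnfrsf9, the costimulatory receptor 4-1BB, went from 41.6 to 170 CPM, 4.07-fold (3.40 to 4.91), and 14.2-fold without the 5% of cells richest in it. Sox4, a transcription factor of progenitor and TGF-beta programmes, had 30.3 and 121 CPM, 4.01-fold (3.24 to 5), and 8.68-fold without the 5% of cells richest in it. The 14.2 and 8.68 rest on the fewer UMIs left after that removal and carry no interval, so their size is uncertain. Cav1, the coat protein of caveolae, had 66.7 and 160 CPM, 2.39-fold (2.06 to 2.79). Clec4d and Clec4n, lectin receptors for fungal and mycobacterial glycans, were 2.30-fold and 2.23-fold higher. Mmp9, a gelatinase, was scarce, with 28 and 236 UMIs, 4.81-fold (3.25 to 7.40), with all its day 10 UMIs in the tenth of cells richest in it. The ratio of Mmp9 was 2.67 without the 5% of cells richest in it and 12.8 with at least 30 C1q UMIs.

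**Figure D3:**
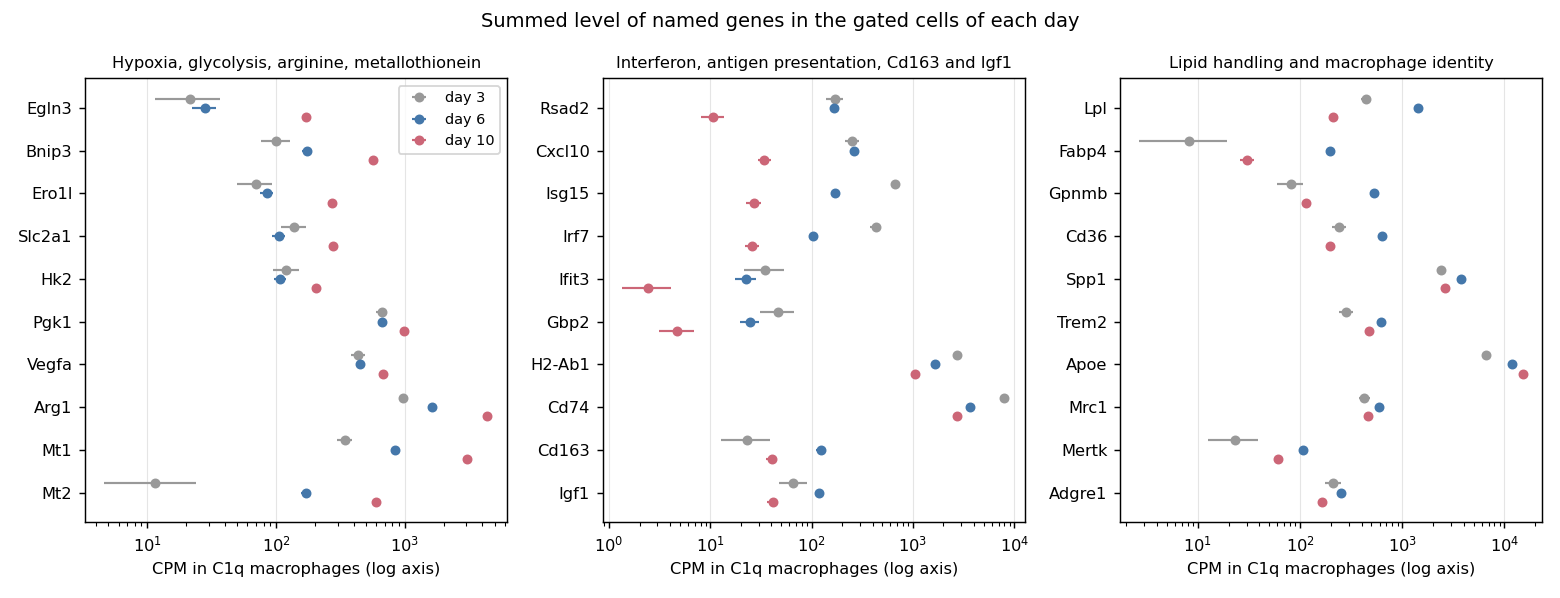
Points give the level of named genes in CPM (horizontal log axis) summed over the C1q macrophages of day 3 (grey), day 6 (blue) and day 10 (red), with 95% Poisson intervals for counting error. Egln3, Arg1 and Mt1 are highest at day 10, Rsad2 and Irf7 are lowest at day 10, and Lpl, Gpnmb and Cd36 are highest at day 6.

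Interferon-response genes were lower at day 10. All 22 measured genes of the type I list were at least 1.5-fold lower, against a background of 10.2%, and their median log2 ratio was -2.00. The summed level of the list was 6606 CPM on day 3, 2431 CPM on day 6 and 871 CPM on day 10. In dendritic cells the 20 measured list genes had a median of -0.30, against -0.05 over all genes measured there. These genes encode antiviral effectors, nucleic acid sensors and the transcription factors that answer type I interferon.

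The interferon genes' promoters are shown because STAT and IRF factors bind repeats of the letters GAAA. RefSeq promoters matched 14 of the genes, 15 promoters in all. The core GAAANNGAA, searched on both strands with overlapping matches allowed, occurred in 66.7% of these 15 and in 8.56% of all promoters. The stretches below hold 3 matches each for Isg15 and Ifit1 and 1 for Rsad2, in capitals where neighbouring matches run into each other.
Isg15 (chr4:156200819-156201068, minus strand): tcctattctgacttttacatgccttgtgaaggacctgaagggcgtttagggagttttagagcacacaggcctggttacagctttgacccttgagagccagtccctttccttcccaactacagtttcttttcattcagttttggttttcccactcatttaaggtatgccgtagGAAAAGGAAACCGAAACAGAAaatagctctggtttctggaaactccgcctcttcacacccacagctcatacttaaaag
Ifit1 (chr19:34640639-34640888, plus strand): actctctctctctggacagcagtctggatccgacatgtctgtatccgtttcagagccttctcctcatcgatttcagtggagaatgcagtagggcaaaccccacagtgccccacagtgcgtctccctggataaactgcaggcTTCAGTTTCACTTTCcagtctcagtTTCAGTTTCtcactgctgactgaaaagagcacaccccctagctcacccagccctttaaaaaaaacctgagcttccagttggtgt
Rsad2 (chr12:26456453-26456702, minus strand): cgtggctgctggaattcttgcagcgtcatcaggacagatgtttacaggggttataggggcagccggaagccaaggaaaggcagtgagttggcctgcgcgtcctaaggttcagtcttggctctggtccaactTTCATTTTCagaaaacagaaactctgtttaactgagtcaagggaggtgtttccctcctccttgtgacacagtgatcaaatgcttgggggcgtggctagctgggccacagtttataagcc

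Rsad2 (chr12:26442746-26456452), the antiviral enzyme viperin, had the smallest ratio of genes reaching 100 CPM on either day apart from hemoglobin genes. It measured 167 CPM (546 UMIs) on day 6 and 10.7 CPM (61 UMIs) on day 10, 15.7-fold lower (12 to 20.8), after 168 CPM on day 3. Isg15, a ubiquitin-like modifier, went from 670 CPM on day 3 to 168 CPM on day 6 and 26.7 CPM on day 10, 6.29-fold below day 6 (5.25 to 7.58). Irf7, which amplifies the interferon response, had 429, 104 and 26.0 CPM, 3.99-fold below day 6 (3.29 to 4.88). Ifit1, which binds foreign RNA caps, had 142 UMIs on day 6 and 22 on day 10, 11.3-fold lower (7.18 to 18.6). The smallest differences of the list were in Bst2 (0.60), which tethers virus particles, and Oas1a (0.58).

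A minority of day 6 cells held most of these UMIs. The tenth of cells richest in Rsad2 held 96.3% of its day 6 UMIs, and thinned cells with Rsad2 made up 7.43% of day 6 (4.6 to 11.2%) and 2.59% of day 10 (1.52 to 4.12%), against 0% and 2.16% of dendritic cells. Over the list the median thinned cell held 2 UMIs on day 6 and 1 on day 10, and the cell at the ninetieth percentile held 10 and 4. Cells with 0 list UMIs made up 17.8% and 37.8%. Leaving out, in each library, the 10% of cells with the largest share of list UMIs gave a median log2 ratio of -1.41. Keeping only the 85 cells of day 6 and 301 of day 10 with fewer than 2 UMIs of markers of lymphoid, neutrophil, mast, stromal, epithelial or erythroid cells gave -0.92, and Rsad2 then had a ratio of 0.79, Isg15 0.48 and Irf7 0.54. The cells kept by that setting had median depths of 5458 UMIs on day 6 and 6237 UMIs on day 10, against 12693 and 9178 UMIs in those left out, and the part of depth in the change was not tested.

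Genes that answer interferon gamma were lower on the whole, with lower counts. Of 12 measured genes, 8 were lower and 0 higher, with a median log2 ratio of -1.05. Irf1 went from 125 to 54.5 CPM (ratio 0.43, 0.37 to 0.50), and in dendritic cells its ratio was 0.48. Gbp2, a guanylate-binding protein that attacks vacuoles of microbes, went from 24.5 to 4.72 CPM (0.19, 0.12 to 0.30). With the 85 and 301 cells named above, Gbp2 had a ratio of 0.83 and the list median was 0.05, so that the direction of this list depended on that setting.

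MHC class II genes were lower in the sums, and their direction differed by range of C1q. Of 7 measured genes, 6 were at least 1.5-fold lower, and the median log2 ratio was -0.73. H2-Ab1, a chain of the peptide-presenting dimer, had 2751 CPM on day 3, 1646 CPM on day 6 and 1058 CPM on day 10, 1.56-fold below day 6 (1.5 to 1.61). Cd74, the invariant chain, had 8018, 3659 and 2710 CPM, 1.35-fold below day 6 (1.32 to 1.38). The genes were carried by few cells: the median thinned cell had 1 list UMI on both days, the ninetieth percentile was 65.2 UMIs on day 6 and 33.5 on day 10, and 84.8% of the day 10 UMIs of H2-Ab1 lay in the tenth of cells richest in it. The list median was -0.97 in cells with 3 to 9 C1q UMIs, 0.56 in those with 10 to 29 and -0.87 in those with 30 or more. Without cells holding any UMI of Flt3, Ccr7, Xcr1, Clec9a or Cd207 it was -0.47, under 1.5-fold. Beside this, the summed dendritic cell markers were 154 and 103 CPM for conventional type 2 cells, 46.5 and 34.6 CPM for type 1 and 23.6 and 10.1 CPM for migratory cells, with Cd209a at 0 by selection and Clec9a at 0. Their part in the result was not tested.

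MHC class I genes differed less in their list median, but their UMIs were lower in many cells. The median thinned cell held 14 list UMIs on day 6 and 10 on day 10. Above the day 6 median lay 18.3% of day 10 cells and 48.3% of day 6 cells. The list summed to 7378 and 5172 CPM, of which B2m, given below, was a large part. Of 16 measured genes, 4 were lower and 0 higher, with a median log2 ratio of -0.25. B2m, the shared light chain, went from 2917 to 1605 CPM, 1.82-fold lower (1.77 to 1.87).

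**Figure D4:**
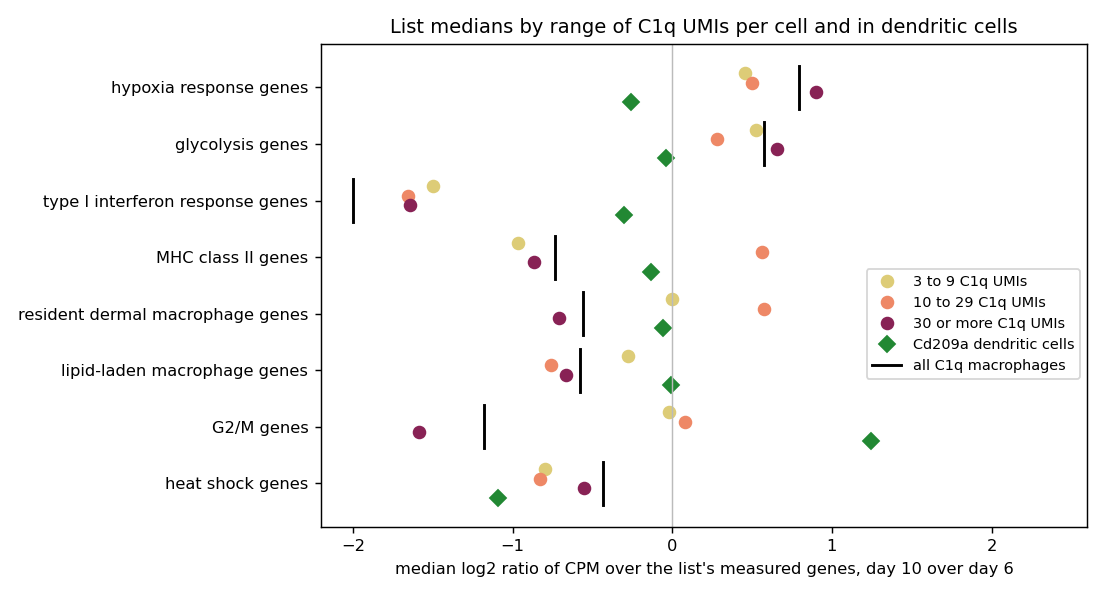
Median log2 ratio of 8 gene lists at day 10 over day 6 (horizontal axis) in cells with 3 to 9, 10 to 29 and 30 or more C1q UMIs, in all C1q macrophages (black bar) and in Cd209a dendritic cells (green). The hypoxia, glycolysis and interferon lists keep 1 side of 0 in all 3 ranges, while MHC class II and resident dermal genes do not, and G2/M genes have 1 gene in each of the 2 lower ranges.

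The cells of both days were also compared within ranges of C1q, which are ranges and not cell types. The 3 ranges held 28, 71 and 170 cells on day 6 and 110, 174 and 372 on day 10. The hypoxia list's median was 0.45, 0.50 and 0.90 from the lowest range to the highest, and Arg1 had ratios of 2.38, 1.97 and 2.92. The interferon list's median was -1.5, -1.65 and -1.64, over 4, 11 and 22 genes with enough UMIs. Mt1 had ratios of 3.08, 4.32 and 3.44.

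Genes of lipid-laden macrophages were lower at day 10 in part. Of 19 measured genes, 9 were at least 1.5-fold lower and 0 higher, and the median log2 ratio was -0.58. That median stayed below 0 in all 19 other settings and past 1.5-fold in 9 of them, and was -0.12 without cells with markers of other types. The median thinned cell held 43 list UMIs on day 6 and 42 on day 10. Above the day 6 median lay 47.6% of day 10 cells and 47.2% of day 6 cells. These UMIs per cell weigh Apoe heavily. It made up 11816 and 15200 CPM of the list's summed 27393 and 25646 CPM, and lay above its day 6 level. Of the 19 genes 16 had ratios below 1 and 3 above. Lpl (chr8:68880491-68907448), which releases fatty acids from lipoproteins, measured 444 CPM on day 3, 1441 CPM on day 6 and 212 CPM on day 10, 6.80-fold below day 6 (6.39 to 7.25). Fabp4, a fatty acid carrier, had 195 and 30.4 CPM, 6.42-fold lower (5.42 to 7.64), and a ratio of 0.62 in the 85 and 301 cells with fewest markers of other types. Gpnmb, a glycoprotein of stressed lysosomes, had 533 and 116 CPM, 4.61-fold lower (4.21 to 5.05). Cd36, a scavenger receptor for oxidised lipid, had 630 and 197 CPM, 3.19-fold lower (2.97 to 3.43). Lpl was found in 34.9% of thinned day 6 cells (29.3 to 41.0%) and 7.93% of day 10 cells (5.98 to 10.3%), against 4.21% and 2.88% of dendritic cells.

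Other members of the list differed less or lay above day 6. Spp1, osteopontin, was 1.44-fold lower (3803 and 2650 CPM), with ratios of 2.18, 0.88 and 0.55 from the lowest range of C1q to the highest. Trem2, the lipid receptor that marks such cells, had 616 and 475 CPM, a ratio of 0.77 (0.73 to 0.82). Apoe, which carries cholesterol out of the cell, and its partner Abca1 were above their day 6 levels, at 1.29-fold (1.27 to 1.30) and 1.34-fold (1.27 to 1.42). Abcg1, another cholesterol exporter, had a ratio of 0.37, and Plin2, a coat protein of lipid droplets, 0.64.

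Lysosomal genes gave counts past 1.5-fold near the background, but most lay somewhat below day 6. Of 22 hydrolase and membrane genes 3 were lower and 0 higher by that rule, with 19 at ratios below 1 and a median of -0.29. Of 13 proteases and inhibitors 2 were lower and 1 higher, with 11 at ratios below 1 and a median of -0.29. The hydrolase list summed to 10924 and 7781 CPM, and the median thinned cell held 21 and 15 of its UMIs. Above the day 6 median of that list lay 20.3% of day 10 cells and 45.4% of day 6 cells. Ctsb, cathepsin B, went from 5016 to 2813 CPM (0.56, 0.55 to 0.57). Ctsc, which activates granule proteases, was 1.54-fold higher (1.46 to 1.62).

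Genes of resident dermal macrophages and of dead-cell clearance leaned lower in their list medians. The list UMIs of the median cell, which abundant members weigh most, were not lower. Of 17 resident genes 8 were lower and 0 higher (median -0.56), and of 16 clearance genes 6 were lower and 0 higher (median -0.47). Cd163, a receptor for haptoglobin-hemoglobin, had 123 and 40.2 CPM, 3.06-fold lower (2.6 to 3.61), but thinned cells with it were 6.69% and 5.95%, and with a mitochondrial limit of 5% its ratio turned to 1.25. Lyve1, a hyaluronan receptor of perivascular macrophages, had 155 and 103 UMIs, 2.63-fold lower (2.04 to 3.41). Selenop, a selenium carrier, was more widely found, at 1125 and 574 CPM (0.51, 0.49 to 0.54). Mrc1, the mannose receptor, lay at 0.79 (0.75 to 0.84). The resident list's median was -0.0013 in the lowest range of C1q, 0.58 in the middle one and -0.71 in the highest. Its summed level was 5730 and 4688 CPM, whereas the median thinned cell held 7 list UMIs on day 6 and 8 on day 10. Above the day 6 median lay 53.4% of day 10 cells and 48.0% of day 6 cells. Of the 17 resident genes 13 had ratios below 1 and 4 above. The largest ratios were those of Ninj1 (375 and 545 CPM) and F13a1 (670 and 886 CPM), which add many UMIs to these sums.

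Of the clearance genes, Mertk, the receptor for phosphatidylserine bridges, had 108 and 61.5 CPM (0.57, 0.49 to 0.66). Its ligand Gas6 had 126 and 77.1 CPM (0.61, 0.53 to 0.70). Axl, the sister receptor, had 68.5 and 24.5 CPM (0.36, 0.29 to 0.44), and in dendritic cells its ratio was 0.53. Both receptors and this ligand of the family were thus below day 6. Mertk had a ratio of 0.91 in the 85 and 301 cells with fewest markers of other cell types, and the clearance list's median there was -0.13. The summed level of the clearance list was 3422 and 3430 CPM, and the median thinned cell held 6 list UMIs on both days. Thbs1, the member with the largest ratio at 1.49, made up 1159 and 1726 CPM of that sum. Of the measured clearance genes 11 had ratios below 1 and 5 above. Above the day 6 median lay 45.3% of day 10 cells and 39.4% of day 6 cells.

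Genes of mature macrophages mostly lay within 1.5-fold. Of 18 mature macrophage genes 1 was higher and 4 lower, with a median of -0.04. Csf1r, the receptor for the macrophage growth factor, was at 467 and 536 CPM (1.15, 1.08 to 1.22). Adgre1, which encodes F4/80, was lower at 164 CPM on day 10 (0.66, 0.60 to 0.73). Pf4, a platelet-type chemokine, was 1.64-fold higher (1.6 to 1.68). Of 14 classical monocyte genes 2 were higher and 3 lower, with a median of -0.19 that turned to 0.08 with at least 30 C1q UMIs and 0.05 in cells thinned before selection, and the summed level was 6348 and 7211 CPM. Ms4a4c and Plac8 were its lowest members, at 0.20 and 0.24, and Vcan its highest, at 2.12. Ccr2, the monocyte entry receptor, measured 266 and 273 CPM (1.03, 0.95 to 1.12) and Cx3cr1 103 and 100 CPM (0.97, 0.85 to 1.11).

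Iron genes went both ways. Of 15 measured genes, 5 were at least 1.5-fold higher and 1 lower, and the median was 0.33. It was -0.12 without the 5% of cells richest in each gene and 0.05 without the 10% richest in the list. Hmox1, which breaks down heme, had 279 CPM on day 3, 1194 CPM on day 6 and 1909 CPM on day 10, 1.6-fold above day 6 (1.54 to 1.66), whereas its ratio in dendritic cells was 0.25. Fth1, the ferritin heavy chain, went from 19608 to 30743 CPM, 1.57-fold (1.55 to 1.58). Spic, a factor of iron-recycling macrophages, was scarce, with a ratio of 2.11 (1.2 to 3.92), which was 1.14 without the 5% of cells richest in it.

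Growth factors divided. Of 15 measured genes 1 was higher and 7 were lower, with a median of -0.53. Igf1 had 119 and 41.2 CPM, 2.89-fold lower (2.45 to 3.41). Areg, an EGF receptor ligand, had 250 UMIs on day 6 and 34 on day 10, 12.9-fold lower (8.97 to 19.0), and all its UMIs lay in the tenth of cells richest in it. Pdgfa was the gene above 1.5-fold, at 1.64 (1.36 to 1.98). In the 85 and 301 cells named above the list's median was 0.38, so that its direction depended on that setting.

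Cytokines and chemokines went both ways. Of 14 inflammatory genes 2 were higher and 5 lower (median -0.03). Tnf had 427 and 221 CPM, 1.93-fold lower (1.79 to 2.08), and Il10 a ratio of 0.38 (0.31 to 0.47). Il1b lay at 3881 CPM on day 3, 1477 CPM on day 6 and 2126 CPM on day 10, 1.44-fold above day 6 (1.39 to 1.49). Of 18 chemokines 4 were higher and 7 lower (median -0.13). Cxcl2, a neutrophil attractant, went from 7201 to 11211 CPM, 1.56-fold (1.53 to 1.58), against 0.23 in dendritic cells. Cxcl10, an interferon-induced attractant of T cells, went from 264 to 34.2 CPM, 7.71-fold lower (6.59 to 9.05), and was lower in dendritic cells too (0.05). In the 85 and 301 cells named above its ratio was 0.79.

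Of 21 matrix and protease genes 3 were higher and 4 lower. Mmp12, macrophage elastase, had 1532 and 951 CPM, 1.61-fold lower (1.55 to 1.67), with ratios of 1.52, 0.34 and 0.51 from the lowest range of C1q to the highest. TMM scaling put it at 0.67, just inside the limit. Fn1, fibronectin, lay at 1.45-fold (1.40 to 1.49), and Vcan, the proteoglycan versican, was 2.12-fold higher (1.80 to 2.51).

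Genes of mitosis were lower in the sums. Of 11 measured G2/M genes 10 were lower and 0 higher, with a median of -1.18. Ube2c, which drives exit from mitosis, had 112 UMIs on day 6 and 46 on day 10, 4.26-fold lower (3.00 to 6.15). Mki67, the proliferation marker, had 115 and 127 UMIs, 1.59-fold lower (1.22 to 2.06). The list median was -1.59 over 8 genes in cells with 30 or more C1q UMIs, and only 1 list gene had enough UMIs in each of the lower ranges. Cells with 0 list UMIs after thinning made up 73.6% of day 6 and 72.1% of day 10. It was 0.34 with a mitochondrial limit of 5% and 0.03 when cells were thinned before selection. The direction thus depended on the limits set on cells. The 6 list genes measured in dendritic cells had a median of 1.25. Of 10 S phase genes 1 was lower and 0 higher.

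Heat shock genes were lower in both cell types. Of 13 measured genes 6 were lower and 2 higher in the macrophages, with a median of -0.43, and in dendritic cells the median was -1.09. Hspa1b, an inducible HSP70, had 1223 and 194 CPM, 6.31-fold lower (5.90 to 6.75), and its near-identical neighbour Hspa1a 1383 and 308 CPM, 4.49-fold lower (4.25 to 4.75). Reads of such copies can be split or lost in counting. In dendritic cells their ratios were 0.29 and 0.30. Tsc22d3, a glucocorticoid-induced gene, had 275 and 53.8 CPM, 5.12-fold lower (4.49 to 5.84), with a ratio of 0.25 in dendritic cells. Each day's cells were prepared as a library of their own, so the day and the preparation cannot be told apart.

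Immediate early genes, which cells switch on within minutes of a stimulus, were at least 1.5-fold higher in 5 of 18 and lower in 2. The highest ratio was that of Fos at 1.80-fold (1.74 to 1.87). The lowest was that of Dusp2, a phosphatase of MAP kinases, which went from 129 to 40.2 CPM (0.31).

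Transcription factors of macrophages lay on both sides of their day 6 levels. Of 25 measured genes 3 were higher and 4 lower, with a median of -0.11. Klf4, a factor of monocyte differentiation, had 253 and 426 CPM, 1.68-fold (1.55 to 1.82), and Atf3, a stress-induced repressor, 471 and 771 CPM, 1.64-fold (1.54 to 1.73). Nr4a1, which is needed for patrolling monocytes, was lower at 419 and 253 CPM (0.60, 0.56 to 0.65), and so was Nr1h3, the liver X receptor that senses sterols, at 41.6 and 23.1 CPM (0.55, 0.43 to 0.71). Spi1, the master factor PU.1, measured 281 and 326 CPM (1.16, 1.07 to 1.26).

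Markers of alternative activation went both ways, with 3 of 15 higher and 5 lower and a median of -0.35. That median was 0.29 in cells thinned before selection, 0.29 in the 85 and 301 cells with fewest markers of other types and -0.81 without the 5% of cells richest in each gene, so that its direction depended on the setting. Arg1 and Retnla, described above, were joined by the receptor chain Il4ra at 1.57-fold (1.42 to 1.75). Ear2, an eosinophil-type ribonuclease with near-identical copies among which reads can be split, was lower at 93.0 and 20.8 CPM (0.22, 0.18 to 0.28), and Clec10a, a galactose lectin, at 53.8 and 22.7 CPM (0.42, 0.33 to 0.53).

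Cholesterol synthesis genes were scarce in the macrophages, with 4 of 14 higher and 1 lower and a median of 0.35. The same list had a median of 1.34 in dendritic cells over 10 genes.

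Other lists had few genes past 1.5-fold or had some in both directions. Of 16 unfolded protein response genes 0 were past 1.5-fold in either direction, of 14 NF-kB genes 2 were lower, and of 15 antioxidant genes 2 were higher and 1 lower. Among 16 pattern recognition receptors 2 were higher and 4 lower, among 9 Fc receptors 2 and 2, among 15 chemoattractant receptors 2 and 2, and among 16 costimulatory and TNF family genes 2 and 2. Prdx6, a peroxidase of lipids, was 1.84-fold higher (1.71 to 1.99), and Gpx1, the main glutathione peroxidase, was lower at 2023 and 1238 CPM (0.61, 0.59 to 0.63). Fcgr1, the high-affinity Fc receptor, was lower at 216 and 141 CPM (0.65, 0.59 to 0.72), and Cd83, an activation marker, at 331 and 149 CPM (0.45, 0.41 to 0.49).

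Among adhesion genes 2 of 17 integrins and partners were higher and 4 lower. Itgax, the CD11c chain, had 81.1 and 25.3 CPM (0.31, 0.25 to 0.38), and Itgal, the LFA-1 chain, a ratio of 0.62 (0.47 to 0.83). Among 11 neuropilin, plexin and semaphorin genes 2 were higher and 3 lower. Nrp1, a coreceptor for VEGF and semaphorins, had 121 and 74.6 CPM (0.61, 0.53 to 0.71), and Sema3c, a secreted guidance factor, 5.51 and 22.9 CPM, 4.16-fold (2.53 to 7.23). Of 10 other complement genes 1 was lower, which was Itgax again, and C3 lay at 1.42 (1.23 to 1.64).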

How the data were processed

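The deposited files hold whole-number UMI counts per gene and barcode for 3 droplet libraries, and the authors made them with Cell Ranger 3.0.2 against mm10, per the submitters' processing notes; no source used here names the annotation release. Labels say that 2 mice were pooled per library. Counts were summed over the selected cells of each library and expressed as CPM. Ratios carry exact conditional binomial intervals, levels exact Poisson intervals and shares exact Clopper-Pearson intervals, all at 95%. A gene was measured with at least 50 UMIs over both days, and fewer than 3 UMIs in a library were set to 3. No test was made and no p-value given, since each day had 1 library. The comparison was run on simulated data, which were independent Poisson counts with set folds. These hold no clustering of UMIs in cells and no spread between libraries, so the run does not cover either.

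Doublets were sought with Scrublet (scanpy 1.11.5), which marked 1 barcode in each library, so doublets remain largely unchecked. TMM factors came from edgeR. Shares of cells were taken after thinning to 2000 UMIs, and all selected cells reach that depth. Dendritic cells held at least 2 Cd209a UMIs and 0 C1q UMIs. Ratios there and within C1q ranges needed 20 UMIs. Ly6c2 monocytes, 17 on day 6, were too few to compare. Promoters are RefSeq's for GRCm38.p6, and gene positions are GENCODE's on the same build.

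Genes were named by rule: 15 genes from each end of the ratios, if they reached 100 CPM in a library and were neither selection genes, markers of other cells, nor mitochondrial, ribosomal or predicted genes, the 2 largest and 2 smallest of each of 41 lists, and 23 fixed genes, not all printed. Genes outside it were chosen after their values were seen. Members and lists were chosen with earlier results of these data known. Some genes are not reported here.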

Additional observations from a re-analysis of the deposited data

Results flagged for a closer look

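With 1 library a day no sample could stand out within a group. Only genes named by the rule were searched here. Those below were past 1.5-fold in 1 direction in C1q macrophages and in the opposite direction in Cd209a dendritic cells of the same libraries. Outside the rule, Hmox1 and Cxcl2, described above, went opposite ways too, and other such genes were not sought. Each value rests on 1 library a day and the difference between the cell types was not tested.

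Above day 6 in macrophages and below it in dendritic cells were 5 of the genes named by the rule. Retnla had a ratio of 5.93 against 0.27 in dendritic cells. Mt2 had 3.47 against 0.35. Clec4n had 2.23 against 0.57. Trem1, an amplifier of inflammatory signals, had 1.75 against 0.55, on 18 and 12 dendritic cell UMIs. Hspb1, a small heat shock protein, had 4.32 (2.14 to 9.84) on 9 and 68 macrophage UMIs, and 155 and 2 UMIs in dendritic cells. With at least 30 C1q UMIs Hspb1 had 0.40, and Trem1 had 0.97 without cells with markers of other types, on the same side of 1 as in dendritic cells.

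Below day 6 in macrophages and above it in dendritic cells were 5 others. Ccl5, a T cell attractant, had 0.0902 against 3.00 in dendritic cells, on 57 and 9 macrophage UMIs. Ube2c had 0.23 against 5.02, Nusap1, a spindle protein, 0.32 against 6.36, and Birc5, a mitotic regulator of survival, 0.66 against 1.92. At a mitochondrial limit of 5% Nusap1 (1.43) and Birc5 (1.37) lay above 1 in macrophages as well, and Ube2c had 0.70. Nrp1 had 0.61 against 1.51.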

How the results depend on the processing

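No paired analysis was possible because each day had 1 library. Of 18 other settings tried on the gene counts, 16 were planned and 2 were added after seeing the data, as was leaving out the 10% of cells richest in a list. The hypoxia median stayed at 0.61 to 0.93 in them. Of 132 genes named by the rule and past 1.5-fold, 72 kept that call in every setting that applies to single genes, and 11 turned direction in at least 1. Causes were not tested, except that other UMI minimums change which genes are measured.

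The higher count was 755 with at least 20 UMIs, 203 with 200 and 1026 with no minimum beyond 1 UMI a library. The lower count was 390 with 200 UMIs, 2788 with no minimum, 489 with cells thinned before selection and 2209 without the 5% of cells richest in each gene.

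The type I interferon median was -1.64 with at least 30 C1q UMIs, -1.28 in thinned cells, -0.92 without cells with markers of other cell types, -1.29 with 200 UMIs and -1.41 without the 10% of cells richest in the list. The interferon gamma median was 0.046 without cells with markers of other types and -1.71 without the 5% of cells richest in each gene. The G2/M median was 0.34 at a mitochondrial limit of 5%, 0.033 in thinned cells and -0.32 with 200 UMIs.

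The MHC class II median was -0.84 and -0.60 at mitochondrial limits of 5% and 20%, -0.66 and -0.87 with at least 10 and 30 C1q UMIs, and -0.64 in thinned cells. It was -0.66 without Scrublet doublets, -1.37 without cells with markers of other types, -0.47 without those with dendritic cell markers and -0.82 as a mean over cells. TMM and median-of-ratios scaling each gave -0.63. Without the 5% of cells richest in each gene it was -1.38, and without the 10% richest in the list -1.52.

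At a mitochondrial limit of 5% the ratios of Cd163 (1.25), Nusap1 (1.43) and Birc5 (1.37) turned above 1. In thinned cells Tlr3 had 1.22, Hp 0.68, Hspb1 0.68, Itga1 0.91 and Sema6b 0.81. Without cells with markers of other types Mfge8 had 1.35, Hp 0.71, Fpr1 0.50 and Trem1 0.97. Fpr1 had 0.95 and 0.77 with at least 10 and 30 C1q UMIs, Hspb1 had 0.40 with 30, and Hp had 0.88 without the 5% of cells richest in it.

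The selected share of day 6 barcodes was 14.9% and 32.3% at mitochondrial limits of 5% and 20%, 18.6% with at least 5000 UMIs, 20.2% and 14.2% with at least 10 and 30 C1q UMIs, and 7.11% without cells with markers of other types. On day 10 these shares were 22.7%, 35.9%, 22.5%, 24.7%, 16.8% and 13.6%, and 27.4% with thinned cells. Depth limits scarce genes, and no setting replaces a replicate library.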

Other observations

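The C1q macrophages of day 3, of which there were 63, were not part of the comparison and their levels are given here as values. Each level rests on 1 library. Lpl (444, 1441 and 212 CPM on day 3, day 6 and day 10), Gpnmb (80.9, 533 and 116 CPM) and Fabp4 (8.25, 195 and 30.4 CPM) were highest at day 6. Type I interferon genes summed to 6606, 2431 and 871 CPM, so that their sum was lowest at day 10. Egln3 (21.5, 27.8 and 172 CPM) and Bnip3 (101, 173 and 564 CPM) lay closer together on day 3 and day 6 than either did to day 10. Ccl8, a monocyte attractant, had 6.60, 309 and 147 CPM, and Chil3, a chitinase-like secreted protein, had 611, 30 and 22.5 CPM.

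Among genes named by size with no list of their own, AY036118 went from 283 to 81.6 CPM (0.29) and was lower in dendritic cells too (0.34). Mxd1, an antagonist of Myc, went from 166 to 51.5 CPM (0.31), and Ifi211, of the interferon-induced nucleic acid sensor family, from 105 to 31.5 CPM (0.30).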
